A study of Mus musculus with 43 samples.

Results

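The comparison described here is that of mouse full-grown oocytes lacking PCGF1, PCGF6 and MLL2 with oocytes lacking PCGF1 and PCGF6 alone. It comprised 6 of the 43 libraries of the series, 3 Pcgf1/6 and Mll2 triple knockout (TKO) libraries and 3 Pcgf1/6 double knockout (DKO) libraries. Both groups carried the Pcgf1 and Pcgf6 deletions, and the TKO oocytes differed by the added loss of Mll2, whose gene symbol is Kmt2b. In addition, 3 wild-type (WT) oocyte libraries of the same table entered the fit so that all groups shared 1 estimate of the spread, and their levels are given for orientation. Full-grown oocytes are ovarian oocytes that have finished growing and store the RNA the egg will use. Age, strain, the Cre driver and the deleted exons are not given in the sources used here, and neither is the number of oocytes pooled for these 9 libraries. No label ties a replicate to its own animal; the p-values therefore describe the spread among these libraries, and that spread may be technical. Morulae, embryos a few divisions after fertilisation, with the same loss on the maternal side (matTKO and matDKO, 10 libraries each) are described at the end.

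Members were all genes with a mean of at least 1 RPKM, a read number corrected for the length of the transcript and the depth of the library, in TKO or DKO oocytes. Of 35842 gene symbols, 12647 passed this filter and 23195 did not; 276 genes lay between 1 and 1.1 RPKM and 281 between 0.9 and 1 RPKM. Levels were compared as log2(RPKM + 1) with limma, and a gene was called at an adjusted p under 0.05 over all 12647 genes. On this scale the change of a gene with low values is understated. A gene silent in one group entered the test only through the other group, so lists of mostly silent genes are tilted towards the group in which their members were detected.

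MLL2 is a histone methyltransferase that places methyl groups on lysine 4 of histone H3 (H3K4) at promoters rich in CpG dinucleotides, within a complex of the COMPASS family, and it is the main enzyme of this mark in growing mouse oocytes. PCGF1 and PCGF6 are subunits of variant forms of Polycomb repressive complex 1 (PRC1), which attach ubiquitin to lysine 119 of histone H2A and hold CpG-rich promoters in a repressed state. The series is titled for a counteraction between MLL2 and H2A ubiquitination. The comparison asks what MLL2 adds once PCGF1 and PCGF6 are gone, while other PRC1 genes, such as Pcgf5, were still detected.

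Promoters of 9 genes are shown because these genes carried the changes described below, with CpG dinucleotides in capitals. Each is 300 bases long, 250 before and 50 after the annotated start, read 5′ to 3′ on the gene's strand from RefSeq on GRCm38.p6. The first 6 belong to genes that fell in TKO oocytes, except Xlr3a, a near copy of Xlr3c that was not called, and the last 3 to genes that rose.
Xlr3c, chrX:73265341-73265640, minus strand: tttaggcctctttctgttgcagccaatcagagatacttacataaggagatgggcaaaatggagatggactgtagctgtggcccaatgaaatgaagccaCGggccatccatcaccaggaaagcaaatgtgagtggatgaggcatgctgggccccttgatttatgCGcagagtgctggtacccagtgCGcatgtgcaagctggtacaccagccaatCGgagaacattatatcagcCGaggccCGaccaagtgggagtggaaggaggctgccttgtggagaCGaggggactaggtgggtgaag
Xlr3a, chrX:73097046-73097345, minus strand: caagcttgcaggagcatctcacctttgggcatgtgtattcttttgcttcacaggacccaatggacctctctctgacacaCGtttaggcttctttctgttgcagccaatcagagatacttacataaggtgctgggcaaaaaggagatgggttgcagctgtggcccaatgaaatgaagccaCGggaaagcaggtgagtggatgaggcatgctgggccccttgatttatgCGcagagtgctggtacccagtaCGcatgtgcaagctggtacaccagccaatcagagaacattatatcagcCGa
Xlr4b, chrX:73214083-73214382, plus strand: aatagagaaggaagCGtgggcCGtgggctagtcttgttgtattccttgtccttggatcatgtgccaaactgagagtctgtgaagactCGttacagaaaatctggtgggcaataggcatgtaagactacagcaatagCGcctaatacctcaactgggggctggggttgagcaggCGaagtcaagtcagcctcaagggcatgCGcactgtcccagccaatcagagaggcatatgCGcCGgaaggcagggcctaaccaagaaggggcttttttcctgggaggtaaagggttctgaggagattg
Fmr1nb, chrX:68761589-68761888, plus strand: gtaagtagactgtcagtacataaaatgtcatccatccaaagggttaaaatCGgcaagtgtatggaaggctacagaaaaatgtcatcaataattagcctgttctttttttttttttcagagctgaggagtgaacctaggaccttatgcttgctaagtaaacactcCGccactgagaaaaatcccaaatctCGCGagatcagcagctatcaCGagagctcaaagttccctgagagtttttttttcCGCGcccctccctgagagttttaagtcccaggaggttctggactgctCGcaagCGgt
Mad2l1bp, chr17:46153502-46153801, minus strand: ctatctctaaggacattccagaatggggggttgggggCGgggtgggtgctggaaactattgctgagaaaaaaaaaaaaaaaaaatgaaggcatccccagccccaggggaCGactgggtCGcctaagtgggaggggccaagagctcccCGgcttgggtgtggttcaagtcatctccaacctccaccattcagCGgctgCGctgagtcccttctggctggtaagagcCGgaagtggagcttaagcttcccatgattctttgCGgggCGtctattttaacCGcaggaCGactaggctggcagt
Ccnb1ip1, chr14:50795679-50795978, minus strand: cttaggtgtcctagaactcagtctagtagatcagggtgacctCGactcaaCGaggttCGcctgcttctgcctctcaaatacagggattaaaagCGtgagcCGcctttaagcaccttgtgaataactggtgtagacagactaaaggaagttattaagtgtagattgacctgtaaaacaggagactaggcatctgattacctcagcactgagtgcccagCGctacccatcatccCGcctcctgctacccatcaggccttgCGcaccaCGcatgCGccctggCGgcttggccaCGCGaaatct
Krt79, chr15:101940275-101940574, minus strand: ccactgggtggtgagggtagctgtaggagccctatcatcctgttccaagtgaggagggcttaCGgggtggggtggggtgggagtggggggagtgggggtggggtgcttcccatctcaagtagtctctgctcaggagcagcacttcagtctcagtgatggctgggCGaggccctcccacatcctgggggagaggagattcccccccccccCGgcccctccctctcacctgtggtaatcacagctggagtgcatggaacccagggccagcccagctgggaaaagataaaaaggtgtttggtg
Defb41, chr1:18265089-18265388, minus strand: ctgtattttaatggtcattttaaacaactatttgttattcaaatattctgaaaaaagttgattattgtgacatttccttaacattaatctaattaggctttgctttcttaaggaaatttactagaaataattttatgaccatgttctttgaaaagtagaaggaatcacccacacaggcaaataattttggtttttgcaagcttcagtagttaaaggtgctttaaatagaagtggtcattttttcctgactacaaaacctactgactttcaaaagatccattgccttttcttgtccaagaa
Mt1, chr8:94178839-94179138, plus strand: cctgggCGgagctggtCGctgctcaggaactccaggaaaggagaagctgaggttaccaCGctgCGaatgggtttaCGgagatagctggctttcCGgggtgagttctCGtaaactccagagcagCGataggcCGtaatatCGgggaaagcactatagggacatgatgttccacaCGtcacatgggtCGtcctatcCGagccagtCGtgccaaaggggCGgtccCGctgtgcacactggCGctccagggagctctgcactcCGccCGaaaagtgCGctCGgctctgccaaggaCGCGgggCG
The Xlr3c window holds 7 CpG dinucleotides, the Xlr3a window 5, the Xlr4b window 8, the Fmr1nb window 9, the Mad2l1bp window 11 and the Ccnb1ip1 window 13. Among the genes that rose, the Krt79 window holds 3, the Defb41 window 0 and the Mt1 window 24. The median over 32851 annotated mouse promoters is 7. Metallothionein promoters are known to carry metal response elements. Searched on both strands for the core letters TGCACNC and TGCGCNC, the Mt1 window holds 3 matches, whereas 25.7% of all promoters hold at least 1 and 1.97% hold 3 or more. A match is a description of the letters only.

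The libraries separated by genotype. Within TKO the correlation of log2(RPKM + 1) between libraries was 0.980 to 0.988, within DKO 0.988 to 0.992, and between TKO and DKO libraries 0.948 to 0.959. Between 11684 and 11980 genes per TKO library and between 11870 and 12088 per DKO library had at least 1 RPKM. The depth of the libraries is unknown. Transcripts of the mitochondrial genome made up 1.72%, 2.38% and 1.58% of the summed RPKM in the TKO libraries, against 0.868%, 0.885% and 0.724% in the DKO libraries. The 15 defining oocyte markers (zona pellucida proteins, Gdf9, Bmp15 and the like) summed to 18774 to 20643 RPKM in TKO and 19442 to 20393 RPKM in DKO, so the label of the cell type held in every library.

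The deleted genes were examined first. Kmt2b (GRCm38 chromosome 7, 30568855 to 30589056) had 1.31, 1.07 and 1.04 RPKM in TKO libraries, against 4.21, 3.91 and 3.58 RPKM in DKO libraries and 4.43 to 5.16 RPKM in WT libraries. It fell by 1.20 ± 0.11 (SE) on the log2 scale in TKO against DKO (adjusted p = 2.78e-05), and the groups did not overlap. Some signal remained, and since the values cover the whole gene, they do not show whether it comes from a deleted transcript. Pcgf1 had 10.7 to 13.7 RPKM in TKO and 10.6 to 13.35 RPKM in DKO, against 1077 to 1153 RPKM in WT. Its difference of -0.01 ± 0.10 between TKO and DKO was not called (adjusted p = 0.957). Pcgf6 had 61.9, 81.6 and 73.2 RPKM in TKO and 60.3, 56.0 and 55.05 RPKM in DKO, against 148 to 159 RPKM in WT. It was 0.33 ± 0.09 higher in TKO than in DKO (adjusted p = 0.0158), a call that was lost without DKO replicate 3 (adjusted p = 0.0528).

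With MLL2 lost on the PCGF1/6-deficient background, nearly as many genes were called as not. Each library is bulk RNA, in which fewer cells of a type and less RNA per cell cannot be told apart. In TKO oocytes 3453 genes rose (27.3% of those tested) and 2797 fell (22.1%), together 49.4%. Changes of at least 2-fold on the log2(RPKM + 1) scale were fewer and leaned the other way, with 391 genes higher (3.09%) and 589 lower (4.66%). At 8-fold or more, 7 genes rose and 23 fell. A TKO mean under 1 RPKM beside a DKO mean of at least 5 RPKM was seen for 42 genes that fell, and a TKO mean of at least 5 RPKM beside a DKO mean under 1 RPKM for 7 that rose. All TKO libraries lay above all DKO libraries in 3854 genes (30.5%) and below them in 3123 (24.7%), called or not. The genes that fell at least 2-fold had a median level of 1.92 RPKM in TKO and 8.12 RPKM in DKO, against 5.59 RPKM in WT. Those that rose at least 2-fold had a median of 11.6 RPKM in TKO and 3.75 RPKM in DKO, against 4.60 RPKM in WT. In the plot of change against level, the strongest losses reach further from 0 than the strongest gains.

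**Figure D1:**
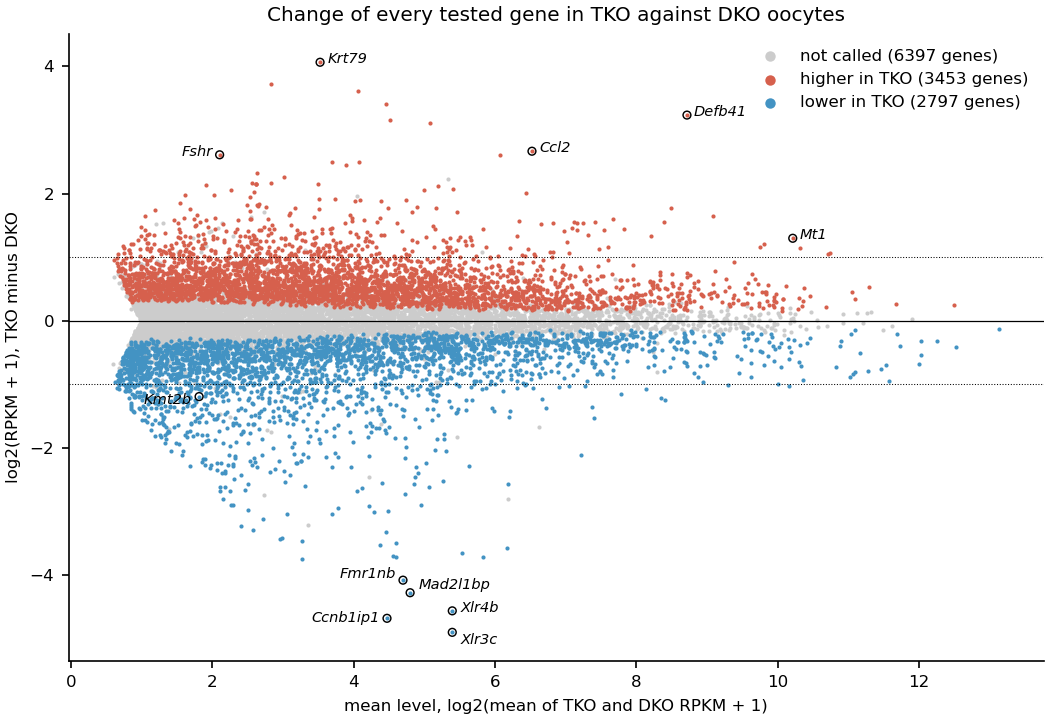
Each point is 1 of the 12647 genes tested. The horizontal axis is the log2 of the mean TKO and DKO level in RPKM plus 1, the vertical axis the difference in log2(RPKM + 1), TKO minus DKO, and dotted lines mark 2-fold. Red genes were called higher in TKO (3453), blue genes lower (2797) and grey genes were not called; the largest fall is Xlr3c at -4.91 and the largest rise Krt79 at 4.07.

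Of the 15 genes that fell most, 8 lay on the X chromosome, which held 3.40% of the tested genes with a known position. Xlr3c, a member of the X-linked lymphocyte-regulated family that is related to the synaptonemal complex protein SYCP3, had 1.67, 1.23 and 2.13 RPKM in TKO libraries, against 64.8, 108 and 69.2 RPKM in DKO libraries. The groups were far apart, and WT libraries held 75.1 to 104 RPKM. Its log2 change was -4.91 ± 0.20 (adjusted p = 1.73e-07). Ccnb1ip1 encodes HEI10, a ligase that marks sites of meiotic crossover. It had 0.63, 0.69 and 0.64 RPKM in TKO, against 35.6, 45.02 and 44.7 RPKM in DKO and 4.20 to 5.78 RPKM in WT, a change of -4.69 ± 0.13 (adjusted p = 1.69e-08). In this gene the TKO libraries also lay below the WT libraries. Mad2l1bp, whose product p31comet helps take apart the spindle checkpoint complex, had 1.63, 1.62 and 1.91 RPKM in TKO, against 56.7, 47.6 and 51.8 RPKM in DKO and 30.25 to 31.2 RPKM in WT. That difference, -4.28 ± 0.09, had the smallest adjusted p of the named genes (3.51e-09).

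The remaining 12 of the 15 largest falls ranged from -4.57 for Xlr4b to -3.44 for Plgrkt, a plasminogen receptor. Fmr1nb, a cancer-testis antigen gene, had 1.49, 2.53 and 1.74 RPKM in TKO, against 45.6, 49.9 and 48.6 RPKM in DKO, a change of -4.08 ± 0.13. Lage3, a subunit of the KEOPS tRNA-modifying complex, fell by 3.52 ± 0.11 and Arxes2 by 3.75 ± 0.10. Among genes with everyday cellular roles, Mocs2, a molybdopterin synthase gene, had 6.44, 5.14 and 5.80 RPKM in TKO, against 90.3, 83.5 and 80.9 RPKM in DKO (-3.66 ± 0.09). Hnrnph2, an RNA-binding protein, fell by 3.47 ± 0.31. Cstb, a cysteine protease inhibitor, had 9.10, 21.9 and 4.67 RPKM in TKO, against 119, 144 and 126 RPKM in DKO (-3.57 ± 0.38). Its TKO libraries varied widely but all lay below the DKO libraries. Ccdc172 changed by -3.71 ± 0.17, and Syce1, Xlr4c and Xlr, also among the 15, are described below. Where WT stood differed from gene to gene. Ccdc172 had 1.43 to 3.40 RPKM in TKO and 42.1 to 43.0 RPKM in DKO, against 42.55 to 45.4 RPKM in WT. Plgrkt had 0.14 to 0.47 RPKM in TKO and 7.10 to 16.6 RPKM in DKO, against 0.60 to 0.75 RPKM in WT. Thus Plgrkt was high in DKO libraries alone, and Ccdc172 was low in TKO libraries alone, as the plot of the largest changes shows.

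**Figure D2:**
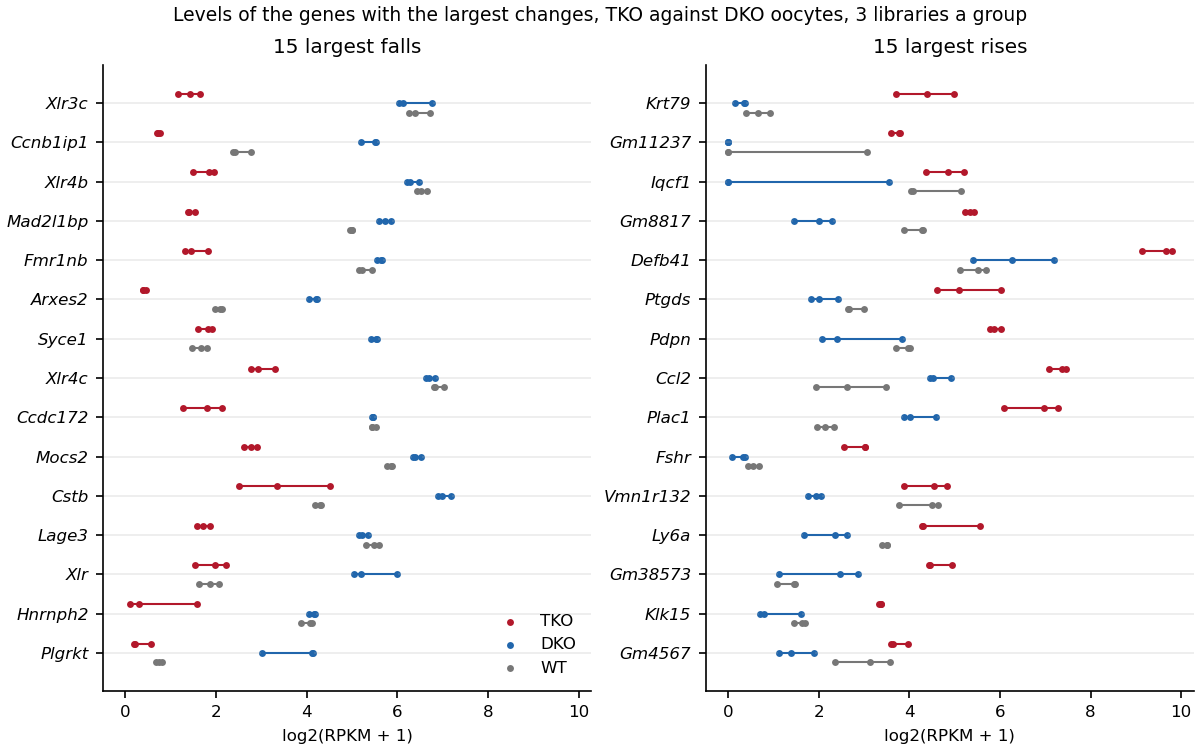
Levels in log2(RPKM + 1) of the 15 genes with the largest falls (left) and the 15 with the largest rises (right), TKO against DKO, in order of size from the top. Points are single libraries of TKO (red), DKO (blue) and WT (grey), 3 a group, and lines join the lowest and highest; red and blue do not overlap in any row, as the choice of genes required, and the place of WT differs from gene to gene, in Ccl2 and Plac1 below both groups.

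The Xlr family fell almost as a whole. Of its 12 listed members 10 were tested, and 9 fell, all by at least 2-fold, with a median log2 change of -3.03 against 0.04 over all genes tested (22.1% of which fell). Xlr4b had 2.60, 2.89 and 1.80 RPKM in TKO and 77.25, 88.6 and 73.6 RPKM in DKO. Xlr4c (-3.71 ± 0.13), Xlr3b (-3.01 ± 0.22), Xlr4a (-2.92 ± 0.12) and the Xlr5 genes (-2.67 to -3.04, tested only through their DKO level) changed likewise. The exception was Xlr3a, with 174, 164 and 174 RPKM in TKO and 180.2, 190.3 and 188 RPKM in DKO, a difference of -0.13 ± 0.06 that was not called (adjusted p = 0.118), although the groups did not overlap. It was also the family member with the highest level in both groups. Xlr itself had 3.63, 1.91 and 2.94 RPKM in TKO, against 62.3, 32.2 and 36.0 RPKM in DKO and 2.08 to 3.16 RPKM in WT. Thus its TKO level overlapped WT, which was not so for Xlr3c or Xlr4b. Members of this family are near-identical copies, and the authors' way of splitting reads among them is not known, so the value of a single copy is uncertain.

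The 9 Xlr3, Xlr4 and Xlr5 genes lie within 219.5 kb of the X chromosome (73074343 to 73293863). In this stretch 10 genes were tested and 8 fell, all of them Xlr genes. The tested gene there that is not of the Xlr family did not fall. Within 500 kb on either side of this stretch 11 further genes were tested, of which 2 rose and 4 fell, against 27.3% and 22.1% of all genes, and 1 rose without TKO replicate 2 or without DKO replicate 3. Idh3g, a subunit of mitochondrial isocitrate dehydrogenase, had 7.53, 7.16 and 4.51 RPKM in TKO and 47.4, 53.3 and 60.6 RPKM in DKO (-2.91 ± 0.16). Its neighbour Ssr4, a subunit of the translocon-associated protein complex, fell by 2.24 ± 0.08, and Pnma5 had means of 0.33 RPKM in TKO and 4.997 RPKM in DKO. Dusp9, a phosphatase of MAP kinases, went the other way, with means of 2.26 RPKM in TKO and 0.273 RPKM in DKO (a log2 change of 1.35). Others there, such as Bcap31 with a mean of 303 RPKM in TKO and 347 RPKM in DKO (adjusted p = 0.053 by limma), were not called. The promoter windows of Xlr3c and Xlr3a, only the first of which belongs to a called gene, matched in 88.6% of 236 aligned positions, those of Xlr3c and Xlr3b in 94.3% of 280, and those of Xlr4b and Xlr4c in 98.6% of 278.

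Most other germline genes of the X chromosome that passed the filter fell. Of 53 such genes measured (Mage, Rhox, Tex and similar families), 17 were tested and 13 fell, against 22.1% of all genes. Members such as Rhox2a, with a mean of 0.24 RPKM in TKO and 7.25 RPKM in DKO, passed the filter only through DKO. This tilts the count towards falls. By limma 0 rose, against 27.3% of all genes, with 1 higher at an unadjusted p under 0.05 and 1 called higher without TKO replicate 2. Rhox2a, a reproductive homeobox gene, had 0.16, 0.49 and 0.07 RPKM in TKO, against 10.5, 4.69 and 6.53 RPKM in DKO (-2.69 ± 0.23). Rhox1 fell by 1.92 ± 0.12. Fmr1nb and Lage3 belong to the same list, and the other 9 falls ran from -1.63 for Zfp711 to -0.58 for Tex11, a gene of meiotic recombination. Tex11 had 11.2, 14.8 and 14.7 RPKM in TKO and 19, 21.7 and 21.5 RPKM in DKO, and its groups did not overlap. The members that were not called were Mageb4, Mageh1, Rhox10 and Bmp15.

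**Figure D3:**
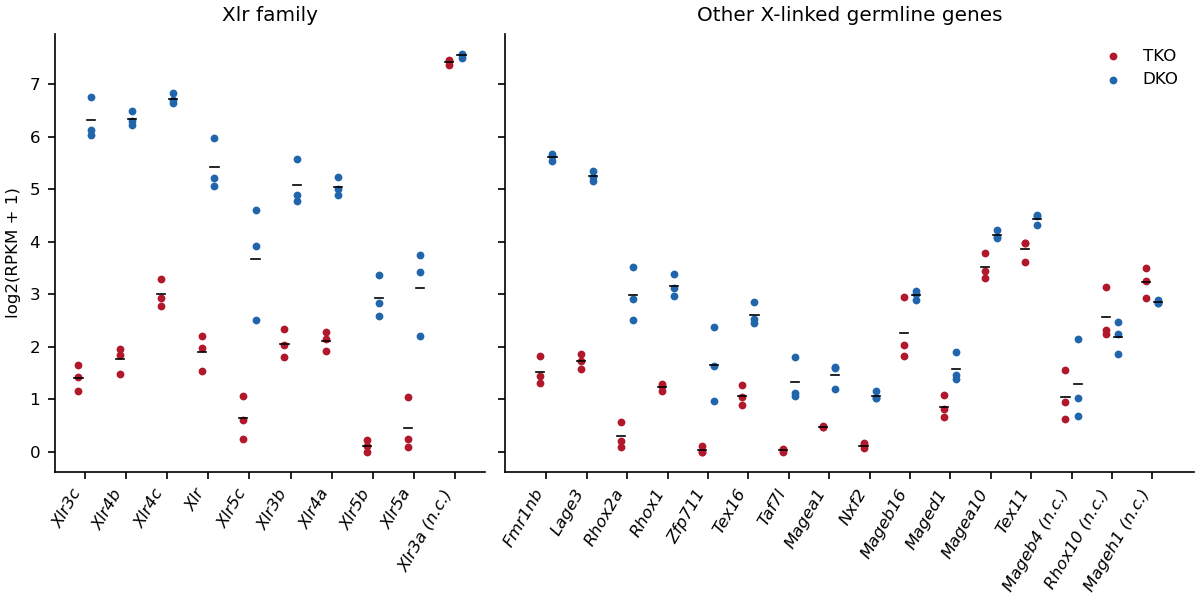
Levels in log2(RPKM + 1) of the 10 tested Xlr genes (left) and of 16 other X-linked germline genes (right; Bmp15, also on that list, is left out for its high level) in TKO (red) and DKO (blue) oocytes. Points are single libraries, 3 a group, and bars their means; n.c. marks genes that were not called. In 9 Xlr genes the TKO points lie below all DKO points by at least 2-fold, while Xlr3a is high in both groups.

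Genes of meiosis also included strong losses. Of 63 meiotic and germline genes 46 were tested, 20 fell and 10 rose (6 rose without DKO replicate 2). These are 43.5% and 21.7%, against 22.1% and 27.3% of all genes. At least 2-fold, 10 fell where 1 rose as much. Syce1, a central element protein of the synaptonemal complex, had 2.75, 2.02 and 2.55 RPKM in TKO, against 41.9, 44.95 and 45.6 RPKM in DKO and 1.79 to 2.51 RPKM in WT (-3.72 ± 0.12). Its TKO and WT libraries overlapped. Majin, which tethers telomeres to the nuclear envelope in meiosis, had 0.09, 0.08 and 0.12 RPKM in TKO, against 10.5, 7.19 and 4.89 RPKM in DKO (-2.91 ± 0.22). Rbm46, an RNA-binding protein needed for meiosis, had 5.31, 3.94 and 2.58 RPKM in TKO, against 30.9, 28.0 and 28.1 RPKM in DKO and 0.03 to 0.41 RPKM in WT (-2.64 ± 0.19). Here the TKO libraries lay between the other groups. Hormad1, a protein of the meiotic chromosome axis, fell by 2.57 ± 0.26. Majin and Hormad1, with TKO means of 0.097 and 0.587 RPKM, passed the filter only through DKO. Such members could be tested only as falls.

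Changes among the oocyte's own genes were mostly under 2-fold, as they were over all genes tested. Of 64 tested oocyte and maternal-effect genes 23 fell and 12 rose (35.9% and 18.75%, against 22.1% and 27.3% of all genes). Their median change was -0.09, and 4 fell and 1 rose by at least 2-fold, against 4.66% and 3.09% of all genes. Sohlh2, a transcription factor of early oocytes, had 8.31, 9.78 and 6.22 RPKM in TKO and 20.7, 19.7 and 18.6 RPKM in DKO, against 1.02 to 1.38 RPKM in WT (-1.20 ± 0.14). Nlrp9c (159, 201 and 180.0 RPKM in TKO; 326, 439 and 377 RPKM in DKO) and Nlrp9b (-1.02 ± 0.11), of the oocyte NLRP family, fell as well, whereas Nlrp4e rose by 1.55 ± 0.10. Copies within this family are similar, so the split of reads among them is uncertain. Of the 15 defining oocyte markers, 2 rose and 4 fell, none by 2-fold: H1foo, the oocyte linker histone, changed by -0.32 ± 0.06, and Gdf9, a growth factor of the oocyte, by 0.34 ± 0.07. The H1foo call was lost with quantile normalization (-0.06, adjusted p = 0.332). Without DKO replicate 1, 1 marker rose, and without DKO replicate 3, 1 rose and 2 fell; without DKO replicate 2, 2 fell.

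Among genes for glutathione and the handling of oxidants the falls outnumbered the rises. Of 34 tested, 16 fell and 8 rose (47.1% and 23.5%, against 22.1% and 27.3% of all genes). By at least 2-fold, 6 fell and 1 rose. Gpx1, a glutathione peroxidase, had 3.37, 6.76 and 3.12 RPKM in TKO, against 20.5, 24.6 and 29.2 RPKM in DKO (-2.30 ± 0.22). Gstk1, a mitochondrial and peroxisomal glutathione transferase, had 2.44, 5.31 and 2.71 RPKM in TKO, against 24.5, 18.0 and 18.9 RPKM in DKO (-2.30 ± 0.21). The DKO libraries overlapped the WT libraries in both genes, at 18.7 to 23.4 RPKM for Gpx1 and 19.2 to 23.9 RPKM for Gstk1 in WT. Prdx4, a peroxiredoxin of the secretory pathway, fell by 2.90 ± 0.14, and Gss, glutathione synthetase, by 1.59 ± 0.12. Prdx4 and Gss passed the filter only through DKO.

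The genes that rose most were of varied kinds. Krt79, a keratin, had 30.5, 12.1 and 19.9 RPKM in TKO libraries, against 0.29, 0.11 and 0.28 RPKM in DKO libraries and 0.31 to 0.90 RPKM in WT. All TKO libraries lay far above the rest, and the log2 change was 4.07 ± 0.27 (adjusted p = 4.30e-06). Defb41, a beta-defensin, had 565, 882 and 806 RPKM in TKO, against 146, 41.6 and 76.2 RPKM in DKO and 33.5 to 50.7 RPKM in WT (3.24 ± 0.37). It was the most abundant of the 15 genes with the largest rises. Ccl2, a chemokine that attracts monocytes, had 134, 165 and 174 RPKM in TKO, against 21.1, 29.5 and 21.9 RPKM in DKO and 2.87 to 10.3 RPKM in WT (2.67 ± 0.31).

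Plac1, a gene of the placenta on the X chromosome, had 67.0, 155 and 125 RPKM in TKO, against 23.2, 13.85 and 15.3 RPKM in DKO and 2.91 to 4.06 RPKM in WT (2.61 ± 0.28). In Ccl2 and Plac1 the 3 genotypes did not overlap. Ptgds, a prostaglandin D synthase (3.16 ± 0.30), Pdpn, the membrane protein podoplanin (3.12 ± 0.36), Ly6a, a surface protein (2.49 ± 0.33), and Klk15, a kallikrein protease (2.33 ± 0.21), also rose. For Pdpn the TKO libraries had 54.1 to 63.8 RPKM and the DKO libraries 3.22 to 13.3 RPKM, with WT at 12.02 to 15.1 RPKM. Apart from Fshr, described next, the other 6 were Iqcf1, Vmn1r132, Gm11237, Gm8817, Gm38573 and Gm4567. In 2 of them, Iqcf1 and Vmn1r132, the TKO libraries overlapped WT, and Gm11237 and Iqcf1 were listed at 0 in 3 and 2 DKO libraries. An exact 0 can be a failed estimate.

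Fshr, the receptor for follicle-stimulating hormone and a granulosa cell marker, had 4.86, 7.18 and 7.18 RPKM in TKO, against 0.06, 0.30 and 0.25 RPKM in DKO (2.61 ± 0.16). The whole list of 22 granulosa and cumulus markers summed to 46.2 to 59.5 RPKM in TKO libraries and 35.6 to 47.0 RPKM in DKO libraries. Of these markers 8 were tested. Against 27.3% and 22.1% of all genes, 1 of them rose (Fshr) and 1 fell (Cyp11a1, an enzyme of steroid synthesis, -0.51 ± 0.14). Without DKO replicate 3, 2 rose and 0 fell; without TKO replicate 1, 2 rose; without TKO replicate 2, 3 fell. In all TKO libraries 14 of the 22 stayed below 1 RPKM, against 16 in DKO and 18 in WT libraries. In TKO, Amh had at most 0.05 RPKM and Foxl2 at most 0.02 RPKM. Krt18, Vim and Tnfaip6 were listed at 0 in all TKO libraries, while 1 marker was in DKO and 5 were in WT. Stroma, endothelial and blood markers summed to 12.9 to 18.3 RPKM in TKO and 7.63 to 10.5 RPKM in DKO. Pecam1 (0.76 ± 0.12) and Dcn (0.75 ± 0.27) rose among the 3 of 19 tested. Of the 19, 3 were listed at 0 in all TKO libraries (Col1a2, Hba-a2 and Hbb-bs), against 9 in DKO and 12 in WT libraries. The Dcn call was lost without TKO replicate 2 (adjusted p = 0.0817), without DKO replicate 2 (0.0972), without DKO replicate 3 (0.112), without WT replicate 2 (0.0501) and without WT replicate 3 (0.0535), which leaves 1 that rose. The part of other cells in the rises was not tested.

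In the lists of histone-mark enzymes the rises outnumbered the falls, as they did over all genes tested (27.3% against 22.1%). Of the 20 tested H3K4 methyltransferase and COMPASS genes 12 rose, all less than 2-fold, and 2 fell, among them the deleted Kmt2b. Cxxc1, the CpG-binding subunit of the SET1 complexes, had 16.8, 11.02 and 14.01 RPKM in TKO and 7.78, 6.55 and 6.75 RPKM in DKO (0.88 ± 0.15). Ncoa6 and Wdr5, further partners, rose by 0.74 ± 0.09 and 0.64 ± 0.10. Of 34 tested PRC1 genes 16 rose, the deleted Pcgf6 included, and 5 fell, with a median of 0.26. Among them Kdm2b, which brings the PCGF1 complex to CpG islands, had 130.5, 94.1 and 101.1 RPKM in TKO and 63.7, 55.2 and 52.3 RPKM in DKO (0.91 ± 0.13). Fbrs, of variant PRC1 (1.26 ± 0.14), and Phc2, of canonical PRC1 (1.08 ± 0.14), were the 2 that rose at least 2-fold. The 5 that fell were Skp1a (-0.74 ± 0.09), Mga (-0.59 ± 0.14), Pcgf5 (-0.56 ± 0.14), Bcor and Yaf2.

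PRC2 is the complex that methylates lysine 27 of histone H3 (H3K27). Of its 13 tested genes 5 rose (38.5%, against 27.3% of all genes). By limma 0 fell, against 22.1% of all genes, with 1 lower at an unadjusted p under 0.05. Without TKO replicate 1, without TKO replicate 2 or without DKO replicate 1, 1 fell. Suz12, a core subunit, had 72.2, 52.9 and 66.9 RPKM in TKO and 41.1, 39.3 and 38.3 RPKM in DKO (0.67 ± 0.10). Phf1, an accessory subunit, rose by 1.13 ± 0.15. H2A deubiquitinase genes rose in 5 and fell in 1 of 11 (3 rose without DKO replicate 2), with Bap1 at 0.71 ± 0.13 and Usp21 at 0.94 ± 0.11. Of 7 tested histone demethylases of H3K4 and other lysines, Kdm1a, Kdm2b and Kdm6b rose and 2 fell (1 without DKO replicate 3), Kdm5c, an X-linked H3K4 demethylase (-0.53 ± 0.12), and Kdm4a, a demethylase of H3K9 and H3K36 (-0.36). Of 29 chromatin reader and elongation genes 13 rose and 2 fell (8 rose without DKO replicate 2 and 1 fell without TKO replicate 3). Brd2, a reader of acetylated histones, led them with 29.5, 23.1 and 23.5 RPKM in TKO and 10.6, 9.24 and 10.02 RPKM in DKO (1.26 ± 0.10). Of the 7 demethylases 42.9% rose and 28.6% fell, and Kdm2b is also on the PRC1 list. The plot of gene lists shows these lists beside the shares over all genes, 27.3% higher and 22.1% lower.

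**Figure D4:**
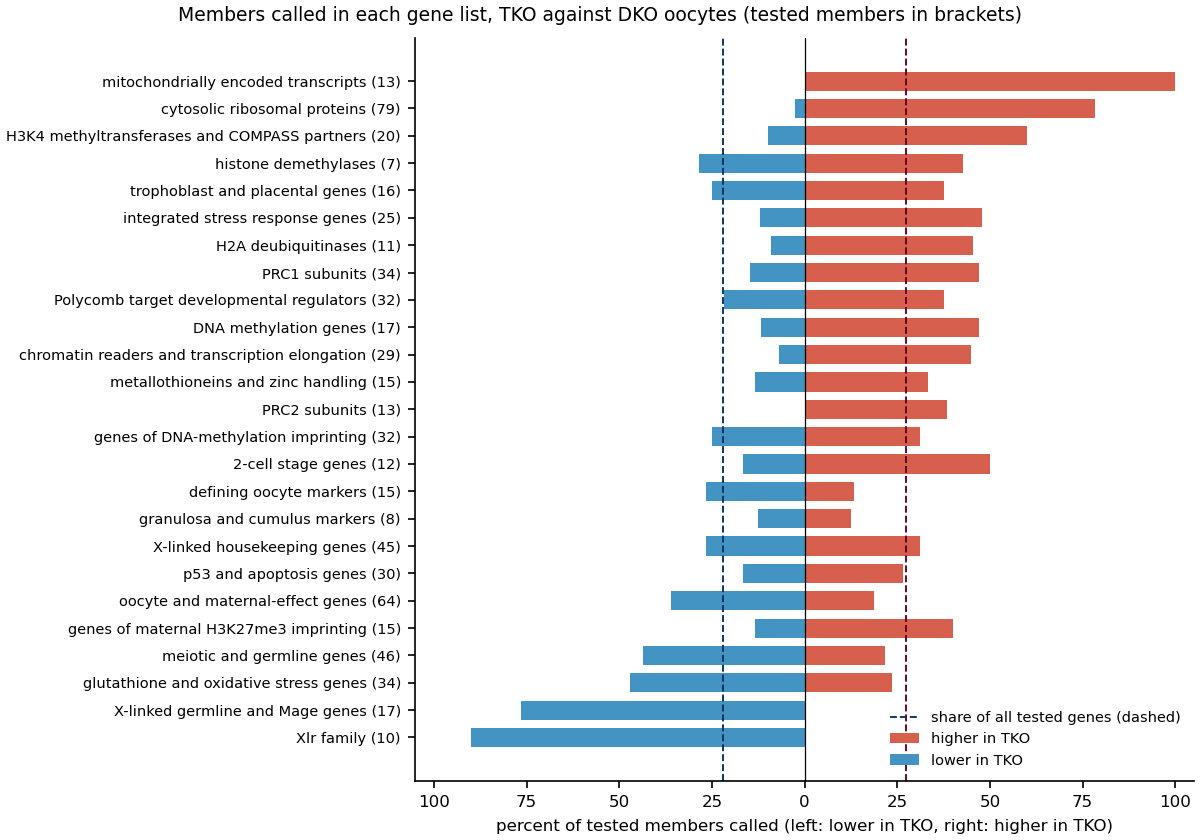
Percent of the tested members of each gene list called higher (red, right) or lower (blue, left) in TKO than in DKO oocytes, ordered by the median log2 change of the list. Numbers in brackets are tested members, and dashed lines are the shares over all genes tested, 27.3% higher and 22.1% lower; the Xlr family and the mitochondrial transcripts stand at the ends.

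Developmental genes held by Polycomb in other cells moved in both directions. Of 149 developmental regulators known as Polycomb targets 32 reached the filter, 12 rose and 7 fell. These are 37.5% and 21.9%, against 27.3% and 22.1% of all genes, so the share that fell was near that of all genes. Among those that fell, Otx1, a homeobox gene, had 6.07 to 8.23 RPKM in TKO, against 16.6 to 19.6 RPKM in DKO and 1.08 to 2.63 RPKM in WT (-1.29 ± 0.19). Irx1 (-1.21 ± 0.16) and Pax9 (-1.19 ± 0.22) fell at low levels.

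Imprinted genes gave a mixed picture too. Of 32 genes imprinted through maternal H3K27 methylation, 15 were tested, 6 rose and 2 fell. These are 40% and 13.3%, against 27.3% and 22.1% of all genes. The number that fell was 1 without any one of TKO replicate 1, TKO replicate 3 or DKO replicate 1, and 5 without TKO replicate 2 or with median-ratio scaling. Matn1, a cartilage matrix gene, rose by 1.07 ± 0.20, and the noncoding Platr20 fell by 1.37 ± 0.13, with 0.11, 0.14 and 0 RPKM in TKO and 1.5, 2.08 and 1.84 RPKM in DKO. Where imprinting rests on DNA methylation instead, 10 of 32 tested genes rose and 8 fell, against 27.3% and 22.1% of all genes. Cdkn1c, a cyclin-dependent kinase inhibitor on distal chromosome 7, had 64.0, 54.8 and 45.2 RPKM in TKO, against 15.8, 12.99 and 16.6 RPKM in DKO and 3.07 to 3.28 RPKM in WT (1.78 ± 0.13). Its neighbours on that chromosome, Slc22a18 (1.6 ± 0.17) and the insulin gene Ins2 (1.91 ± 0.17), also rose. Cd81, a membrane tetraspanin between these genes, went the other way, with 0.28, 0.36 and 0.33 RPKM in TKO against 5.96, 7.35 and 3.55 RPKM in DKO (-2.28 ± 0.19).

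Mt1, a metallothionein that binds zinc and other metals, had 1353, 1938 and 1780.0 RPKM in TKO, against 640.0, 716 and 686 RPKM in DKO and 2.68 to 2.83 RPKM in WT. The increase of 1.296 ± 0.11 over DKO (adjusted p = 2.27e-05) came on top of a level that was already high. Of the 15 tested genes of metallothioneins and zinc handling, 5 rose and 2 fell (33.3% and 13.3%, against 27.3% and 22.1% of all genes). Without TKO replicate 1, TKO replicate 3 or WT replicate 3, 1 fell. Without DKO replicate 2 or DKO replicate 3, 0 fell. Slc30a5, a zinc transporter, rose by 0.90 ± 0.10.

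Genes of stress and cell death included rises and falls. Of 25 tested genes of the integrated stress response 12 rose and 3 fell (48% and 12%, against 27.3% and 22.1% of all genes). By at least 2-fold, 4 rose and 1 fell, against 3.09% and 4.66% of all genes. Ddit3, which encodes the transcription factor CHOP, had 293, 389 and 312 RPKM in TKO, against 123, 129 and 111 RPKM in DKO (1.44 ± 0.10). Hspa5, a chaperone of the endoplasmic reticulum, had 152, 249 and 146 RPKM in TKO and 89.8, 71.0 and 63.9 RPKM in DKO (1.24 ± 0.20). Asns, asparagine synthetase, fell by 1.62 ± 0.23. Among 30 p53 and apoptosis genes 8 rose and 5 fell (26.7% and 16.7%, near the 27.3% and 22.1% of all genes), the largest falls being those of Bid (-1.74 ± 0.20) and Bax (-0.9995 ± 0.09), which promote cell death at the mitochondrion. Of 12 tested genes typical of the 2-cell embryo 6 rose and 2 fell (50% and 16.7%, against 27.3% and 22.1% of all genes). Zscan4d had 3.95, 4.37 and 4.24 RPKM in TKO, against 0.62, 1.41 and 1.48 RPKM in DKO and 6.83 to 8.54 RPKM in WT (1.28 ± 0.16). Zscan4 copies are near-identical, so the split among them is uncertain.

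DNA methylation genes included a strong loss. Mbd1, a methyl-CpG-binding protein, had 0.29, 0.14 and 0.07 RPKM in TKO, against 4, 3.98 and 3.56 RPKM in DKO (-2.06 ± 0.12). Uhrf1, which guides maintenance methylation, rose by 1.02 ± 0.11, and Trim28, a corepressor of zinc finger proteins, by 0.92 ± 0.14. Of the 17 tested, 8 rose (47.1%) and 2 fell (11.8%), against 27.3% and 22.1% of all genes. Without TKO replicate 1, 4 fell, and without TKO replicate 3, 1 fell. Of 16 trophoblast genes 6 rose and 4 fell (37.5% and 25%, against 27.3% and 22.1% of all genes). Without TKO replicate 3 or DKO replicate 3, 2 fell. Pthlh, parathyroid hormone-like hormone, fell, with 49.99, 32.5 and 36.4 RPKM in TKO and 69.5, 78.3 and 91.5 RPKM in DKO (-1.01 ± 0.16).

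Cytosolic ribosomal protein genes rose together. Of 79, 62 rose and 2 fell (4 without TKO replicate 2), against 27.3% and 22.1% of all genes, with a median of 0.42. Rpl13a had 202, 166 and 178 RPKM in TKO and 72.5, 72.8 and 58.9 RPKM in DKO (1.41 ± 0.10). Reads of these genes can be shared with processed pseudogenes. All 13 protein-coding transcripts of the mitochondrial genome rose, 12 of them at least 2-fold, with a median of 1.33 (by limma 0 fell, also at an unadjusted p under 0.05). ND3 had 533, 685 and 450.2 RPKM in TKO, against 177, 159 and 144 RPKM in DKO (1.78 ± 0.15). The mitochondrial share of the library given above was larger in every TKO library than in any DKO library. With mitochondrial transcripts left out, an alternative chosen after seeing the data, 58.1% of the called genes were higher in TKO, against 55.2% with them and 50.8% with median-ratio scaling.

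By chromosome, the share of strong losses was highest on the X. Of 420 X-linked genes 154 fell (36.7%) and 78 rose (18.6%), against 22.1% and 27.3% of all genes. Losses of at least 2-fold took 60 of them (14.3%, against 4.66% of all genes), while single autosomes ranged from 2.45% to 7.13%. Leaving out the Xlr family and the X-linked germline list, 44 of 393 X-linked genes (11.2%) fell at least 2-fold and 132 (33.6%) fell. Among 45 tested X-linked genes of general cell function, 14 rose and 12 fell, with Idh3g, Araf and Ssr4 as the 3 that fell at least 2-fold. Araf, a kinase of the RAF family, had 0.84, 0.33 and 0.29 RPKM in TKO, against 7.13, 6.15 and 6.40 RPKM in DKO (-2.36 ± 0.15). Ogt, which attaches N-acetylglucosamine to proteins, fell by 0.91 ± 0.10. Oocytes hold both X chromosomes in an active state.

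Promoter CpG content was set beside these changes for protein-coding genes with an annotated promoter, 81.4% of those tested and 84.6% of those that fell at least 2-fold. For genes that rose at least 2-fold 76.8% had one, too few for the check, which is void for them. The median observed-over-expected CpG ratio was 0.605 for genes that fell at least 2-fold, against 0.769 for all tested genes. By ratio, the share that fell at least 2-fold was 5.42% below 0.2, 8.44% from 0.2 to 0.4, 9.73% from 0.4 to 0.6, 5.09% from 0.6 to 0.8, 2.79% from 0.8 to 1 and 1.71% above 1. The share was thus highest at intermediate CpG content, and autosomal genes alone gave 4.61%, 7.52%, 8.92%, 4.76%, 2.67% and 1.31%. The median DKO level of the genes ran from 4.57 RPKM in the lowest class to 12.2 and 11.3 RPKM in the 2 highest, and its part in this was not tested.

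**Figure D5:**
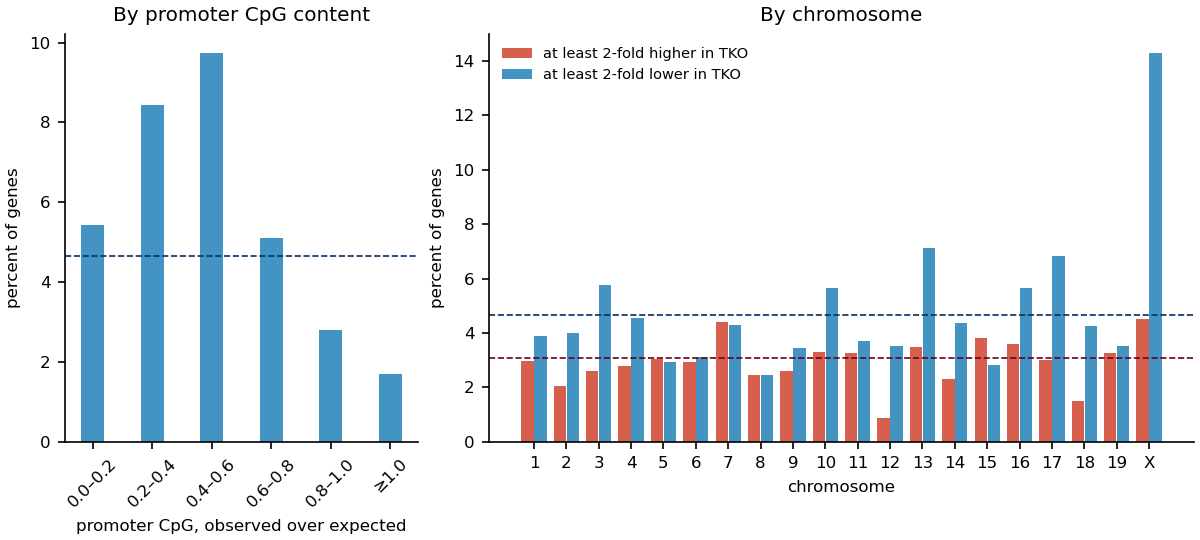
Left, percent of protein-coding genes that fell at least 2-fold in TKO against DKO oocytes by the observed-over-expected CpG ratio of the promoter (664 to 2755 genes a class). Right, percent of the tested genes of each chromosome that rose (red) or fell (blue) at least 2-fold. Dashed lines are the shares over all genes tested, 3.09% higher and 4.66% lower; the class from 0.4 to 0.6 reaches 9.73% and the X chromosome 14.3%.

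Genes near the deleted loci were counted separately. Within 500 kb of Kmt2b 33 genes were tested, 13 rose and 6 fell, against 27.3% and 22.1% of all genes. Without TKO replicate 3 or without DKO replicate 3, 7 rose, and without TKO replicate 1 or without DKO replicate 2, 3 fell. Usf2, a transcription factor (33.3, 20.4 and 24.5 RPKM in TKO; 10.4, 9.41 and 8.48 RPKM in DKO), and Hamp2, a hepcidin gene (1.32 ± 0.14), rose at least 2-fold, and Zfp566 changed by -1.001 ± 0.14. Near Pcgf1, 4 of 19 rose and 6 fell, with 2 that rose without TKO replicate 1 or without DKO replicate 3. M1ap, a meiosis gene, had 0.97, 1.33 and 0.77 RPKM in TKO, against 9.43, 3.38 and 3.26 RPKM in DKO (-1.53 ± 0.29), and was the one that changed at least 2-fold there. Near Pcgf6, 2 of 11 rose and 2 fell, with 1 that fell without any one of the 3 DKO replicates. The share that rose near Kmt2b and the share that fell near Pcgf1 lay above those of all genes. Both counts moved with single libraries left out, and near Pcgf1 4 fell without TKO replicate 3. Whether these small counts differ from the shares over all genes was not tested, so they are no result about these neighbours.

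Few genes were called between the morulae of the same maternal genotypes. Their deposited values sum as TPM do (a transcript's share of all transcripts), and the tables were normalised separately, so levels are not compared across stages. Of 12767 genes tested between matTKO and matDKO morulae, 6 were higher (0.047%) and 3 lower (0.0235%), together 0.0705%; 9178 genes were tested at both stages. Of the 643 among these that changed at least 2-fold in oocytes, 0 were called in morulae by limma, and 57 (8.86%) had an unadjusted p under 0.05, against 562 of the 9178 (6.12%). Kmt2b averaged 6.87 ± 3.29 TPM in matTKO and 9.55 ± 2.42 TPM in matDKO morulae (SD, n = 10 each; adjusted p = 0.674 by limma). The fathers' genotype is not stated in the labels. Xlr3c had a lowest, median and highest value of 0, 0.88 and 2.81 TPM in matTKO and of 0, 1.22 and 13.2 TPM in matDKO morulae. Mad2l1bp averaged 96.6 ± 20.4 TPM in matTKO and 91.7 ± 32.1 TPM in matDKO, and Mt1 13005 ± 4427 TPM in matTKO and 13799 ± 3888 TPM in matDKO. The groups overlapped in all 4 of these genes. Other genes with large oocyte changes differed more between the morula groups, also without a call. By limma, Fmr1nb changed by -1.93 ± 0.54 (adjusted p = 0.232) and Cdkn1c by 1.62 ± 0.42 (adjusted p = 0.196), in the direction seen in oocytes. Xlr4b (0.65 ± 0.33, adjusted p = 0.753) and Plgrkt (0.54 ± 0.23, adjusted p = 0.665) went against their oocyte change. These are examples and not a count.

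Of the 9 genes called in morulae, Rabl2, a small GTPase of cilia, had the smallest adjusted p (0.000649). It had 13.4, 20.6 and 28.5 TPM as lowest, median and highest value in matTKO and 4.81, 8.145 and 13.3 TPM in matDKO morulae, a change of 1.25 ± 0.18. In oocytes it averaged 7.03 ± 0.87 RPKM in TKO and 9.24 ± 0.17 RPKM in DKO, a change of -0.36 ± 0.12 (adjusted p = 0.0306). Lncenc1, a noncoding RNA of naive pluripotent cells, averaged 3.87 ± 2.67 TPM in matTKO and was listed at 0 in all matDKO morulae.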

How the data were processed

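PolyA RNA was measured by RNA-seq in 3 TKO, 3 DKO and 3 WT full-grown oocyte libraries and in 10 matTKO, 10 matDKO and 10 WT morula libraries; per the labels, SMART-Seq v4 and Nextera XT were used, which do not mark strand. The submitters' processing notes list STAR (2.7.3 and 2.7.6), RSEM 1.3.1, featureCounts 1.6.0, Trim Galore 0.6.4 and the build mm10, without assigning tools to tables. The authors deposited RPKM for oocytes. They deposited the morula values under an RPKM title, but each library's values sum to between 999421 and 999922, so they are treated as TPM. Depth per library is unknown, since the values show no whole-read steps. Values under 1 RPKM rest on few reads.

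From these, log2(value + 1) was fitted with limma 3.58.1 in R 4.3.3 (lmFit, eBayes with trend) over all 9 oocyte or all 30 morula libraries, without a replicate block. Genes had a mean of at least 1 in either group compared, 12647 in oocytes; p-values are two-sided and Benjamini-Hochberg adjusted over all of them, and SE are limma's. The fit was tested on simulated data. From the oocyte table, 27 names turned into dates were dropped. Positions and promoters come from RefSeq (GRCm38.p6), matched by symbol for 12342 of the tested genes. The catalytic-dead PRC1 libraries were not used.

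The genes, lists and comparison were chosen with earlier results of these data known. Named genes were the deleted genes, the 15 largest rises and falls by limma's log2 change among called genes whose groups did not overlap and whose higher group averaged at least 5 RPKM, the 4 called members of each list with the largest changes, the tested Xlr genes, and called genes within 500 kb of the deleted ones. Dusp9, Pnma5, Bcap31, Tex11, Zfp711, Kdm4a and the PRC1 genes that fell were added after their values were seen. Alternatives were other pseudocounts, filters, scalings and fits and leaving out each library. One gene that the rule names is not reported here.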

Additional observations from a re-analysis of the deposited data

Results flagged for a closer look

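Rabl2 had opposite calls at the 2 stages. Its log2 change was -0.36 ± 0.12 in TKO against DKO oocytes and 1.25 ± 0.18 in matTKO against matDKO morulae. Whether the changes differ was not tested, since the tables were normalised separately. The other 2 genes called at both stages also had opposite signs: Gm26881 with 0.996 in oocytes and -3.13 in morulae, and Lonrf3 with -0.73 in oocytes and 1.03 in morulae.

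Single morula libraries stood apart from their group for 2 of the genes examined, and chance flags about 1 in 20 groups. The highest matDKO morula library for Xlr3c had 13.2 TPM, against 6 TPM in the next. The highest WT morula library for Kmt2b had 13.68 TPM, against 8.37 TPM in the next.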

How the results depend on the processing

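Over 20 alternatives, 160 named genes gave 3165 values, of which 3008 kept their direction and call, 153 lost the call, 0 gained one and 4 changed sign. Calls were lost at least once for 27 genes, 0 of them among the 15 largest rises and 15 largest falls. The sign changes were all those of Pcgf1, which was not called and ran from -0.10 to 0.078 with single libraries left out: 0.078 without TKO replicate 3, 0.028 without DKO replicate 2, 0.051 without DKO replicate 3, and also 0.019 with mitochondrial transcripts left out, an alternative chosen after seeing the data. The oocyte counts ran from 2736 to 3532 higher and from 2318 to 2890 lower when single libraries were left out, and from 2586 to 3623 higher and 1928 to 3049 lower under the other alternatives. Of the called genes, 55.2% were higher as reported, 53.8% with quantile normalization, 50.8% with median-ratio scaling and 58.1% without mitochondrial transcripts. The median of the p53 list (0.01) was -0.06 with median-ratio scaling, the one list whose median changed sign with a scaling.

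The few morula calls moved more, and the cause was not tested. Genes higher in matTKO numbered 1 with a mean of at least 5, 2 with the 2 groups alone and 10 with the replicate block. Genes lower numbered 1 with a pseudocount of 0.1, 0 without a filter, 0 with a mean of at least 5, 5 with median-ratio scaling and 6 with the replicate block; at an unadjusted p under 0.05, limma gave 562 of 9178 genes in either direction. In oocytes the replicate block gave 3268 higher and 2705 lower. No label says what a replicate number marks. Same-numbered deviations correlated at -0.05 to 0.04 in oocytes (0 of 3 pairs over 0.1) and at -0.03 to 0.47 in morulae, where 7 of 10 pairs were over 0.1 and 4 matTKO and 3 matDKO libraries correlated best with their own number; a shared source of same-numbered morulae was not tested.

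With 3 libraries a group, unknown depth and no statement that replicates came from separate animals, p-values describe these libraries. Changes of genes near 1 RPKM are understated by the pseudocount, and near-identical copies and antisense partners cannot be separated.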
